A study of Mus musculus with 40 samples.

Results

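The Bcl2 family genes described here were Mcl1, Bcl2, Bcl2l1, Bcl2a1a, Bcl2a1b, Bcl2a1d, Bax, Bak1, Bcl2l11 and Pmaip1. They were taken by symbol, each through its mouse Ensembl identifier, and make up 10 of the 45706 genes in the expression tables. Proteins of this family decide whether the outer membrane of the mitochondrion is opened, the step that commits most cells to apoptosis. Mcl1, Bcl2, Bcl-xL (from Bcl2l1) and A1 (from the Bcl2a1 copies) keep the membrane closed, Bax and Bak form the pores, and the BH3-only proteins Bim (from Bcl2l11) and Noxa (from Pmaip1) bind and block the protective members, Noxa chiefly Mcl1 and A1. Blood neutrophils are short-lived cells known to depend on Mcl1, whose protein turns over quickly, and A1 is an inducible member of blood cells that inflammatory signals are known to raise.

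RNA was sequenced from 4 sorted cell types of mice with and without colon adenomas, in 10 groups of 4 libraries (40 in all). The tumor-bearing mice carried Cdx2CreERT2, which drives a tamoxifen-inducible Cre recombinase in the colon epithelium, and floxed Apc alleles (Apc fl/fl), on a C57Bl6/Sv129 background, and had received 1 intraperitoneal dose of 25 mg/kg tamoxifen at 8 to 10 weeks of age. The healthy mice were C57Bl6, with no transgene and no agent, so strain, tamoxifen and tumor cannot be told apart in any comparison of the 2 kinds of mice. Neutrophils (Ly6G+) and monocytes (Ly6G-, Ly6C-high, MHCII-) came from healthy blood, from the blood of tumor-bearing mice and from tumors, and epithelial and stromal cells came from healthy colon and from tumors. Blood was prepared by red cell lysis and tissue by enzymatic digestion, so tumor and digestion cannot be told apart in tumor against blood. The titles of 3 healthy blood monocyte libraries and 1 blood neutrophil library of tumor-bearing mice join 2 numbers each, read here as pools of 2 animals. Libraries of both groups share a title number in 7 of the 11 comparisons of 2 groups, and so may come from the same animals, which the labels do not state.

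Total counts ran from 10717873 to 38002939 per library, of which mitochondrial genes held 5.34% to 83.9%, with the epithelial libraries at 46.3% or more. The sorted types carried their markers (8 of 8 neutrophil markers at a mean of 1 RPKM or more in all 3 neutrophil groups, 5 of 5 monocyte markers in all 3 monocyte groups), but the tumor stromal libraries stood apart: 6 fibroblast markers summed to 5.97 to 24.0 RPKM there, against 355 to 2010 in healthy stroma, and 8 epithelial markers to 24.2 to 191, against 2.29 to 14.1. Epithelial markers also summed to 127, 32.2, 29.3 and 10.7 RPKM in tumor neutrophil replicates 1 to 4, and to at most 1.51 in any blood neutrophil library. The 8 neutrophil markers summed to 1927, 6035, 12470 and 11812 RPKM in those 4 replicates. They summed to 15627 to 20321 RPKM in blood neutrophils of tumor-bearing mice and to 3794 to 8652 in those of healthy mice. The part of these differences in the results was not tested. Of the 16 blood libraries, 9 held at least 300 RPKM of erythroid markers and at least 1 RPKM of Xist, and the other 7 held less of both. Xist reached 1 RPKM in no tumor neutrophil or tumor monocyte library. RPKM, as deposited, is a read count scaled for gene length and library size, and is the scale on which genes were compared with each other. "Passed" means a Benjamini-Hochberg adjusted p under 0.05 over all genes tested by edgeR's quasi-likelihood test on the counts, and every fold change given is on that log2 scale. Nothing in the labels says that the 4 libraries of a group came from separate animals in every case, so the p-values measure the spread between libraries.

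In the GRCm38 (mm10) build the 3 Bcl2a1 copies sit within 1 stretch of chromosome 9, Bcl2a1d at chr9:88723285-88731914 on the minus strand, Bcl2a1a at chr9:88956900-88962419 on the plus strand and Bcl2a1b at chr9:89199209-89207827 on the plus strand. Bcl2l11 (chr2:128126038-128162547, plus) and Bcl2l1 (chr2:152780668-152831728, minus) share chromosome 2. Mcl1 lies at chr3:95658788-95663176 (plus), Bcl2 at chr1:106538178-106714274 (minus), Bax at chr7:45461697-45466898 (minus), Bak1 at chr17:27019810-27029009 (minus) and Pmaip1 at chr18:66458533-66465565 (plus). All 10 are protein-coding. In the annotation Bcl2, Bcl2a1d and Bak1 overlap a gene on the other strand, and Bcl2, Bcl2a1b and Bax overlap one on the same strand, and whether the counting used strand is not given in the sources used here.

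The promoters of the Bcl2a1 copies are shown because the copies carried some of the largest differences below and are so alike that their reads are hard to assign. RefSeq (GRCm38.p6) gives 300 bases for each, 250 before and 50 after the annotated start, written 5′ to 3′ along the gene's strand, for Bcl2a1a at chr9:88956670-88956969, Bcl2a1d at chr9:88731801-88732100 and Bcl2a1b at chr9:89199023-89199322. Capitals mark GAGGAAGT, the only match to an ETS-type motif in each.

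Bcl2a1a: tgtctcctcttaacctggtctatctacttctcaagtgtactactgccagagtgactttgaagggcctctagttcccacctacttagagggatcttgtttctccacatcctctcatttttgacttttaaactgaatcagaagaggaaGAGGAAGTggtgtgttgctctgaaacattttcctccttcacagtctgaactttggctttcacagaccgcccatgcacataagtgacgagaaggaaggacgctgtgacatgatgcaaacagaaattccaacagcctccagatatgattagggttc
Bcl2a1d: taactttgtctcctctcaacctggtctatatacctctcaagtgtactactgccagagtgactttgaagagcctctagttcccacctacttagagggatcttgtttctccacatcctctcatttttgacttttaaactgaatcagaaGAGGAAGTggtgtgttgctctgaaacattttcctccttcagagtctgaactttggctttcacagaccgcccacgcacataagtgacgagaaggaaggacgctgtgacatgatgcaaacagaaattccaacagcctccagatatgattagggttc
Bcl2a1b: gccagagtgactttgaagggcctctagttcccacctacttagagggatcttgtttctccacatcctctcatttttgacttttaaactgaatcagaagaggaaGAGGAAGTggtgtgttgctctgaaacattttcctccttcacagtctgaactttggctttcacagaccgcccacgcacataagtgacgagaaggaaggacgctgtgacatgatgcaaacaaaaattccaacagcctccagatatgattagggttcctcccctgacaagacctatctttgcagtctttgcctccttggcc

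The motif, searched on both strands, begins at position -104 in Bcl2a1a and Bcl2a1d and at -148 in Bcl2a1b, counted from the start. It is in 3.20% of 32851 mouse promoters of the same length, with chromosome 18 left out of the search. That leaves 9 of the 10 genes, without Pmaip1, which lies on chromosome 18. Among the 9, Bak1 also holds a match (at -22, minus strand). The NF-kappaB-type motif (0.411% of promoters) has no match in the 9, and the FOXO-type motif GTAAACA (3.65%) has 1, in Bcl2l11 at -227. None of these motifs overlaps another in the windows shown. Over their aligned bases the Bcl2a1a promoter is 99.2% identical to that of Bcl2a1b and to that of Bcl2a1d at 288 of 300 positions. The transcripts (819, 817 and 863 bases for Bcl2a1a, Bcl2a1b and Bcl2a1d) are 98.2% (a and b), 98.8% (a and d) and 99.1% (b and d) identical, and 57.6% to 79.5% of the 50-base windows of each recur in another copy. In the 22 libraries with at least 20 counts of each copy, the RPKM of Bcl2a1d was 94.4% to 99.9% of that of Bcl2a1a, and that of Bcl2a1b 46.3% to 102%. Their values are therefore uncertain as values of single copies, and how reads that fit several copies were divided is not given in the sources used here.

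Mcl1 was the most abundant of the 10 transcripts per length, by group mean, in all 10 groups, and the 3 Bcl2a1 copies and Bcl2l11 ranged most widely between groups. Mean Mcl1 ran from 124 ± 19.9 RPKM (SD, n = 4) in healthy blood neutrophils through 108 ± 30.5 in tumor neutrophils, 80.9 ± 13.3 in tumor monocytes and 45.4 ± 9.03 in healthy stroma to 6.72 ± 3.16 in healthy epithelium. In that order the libraries of neighbouring groups overlapped at 8 of 9 steps, and only tumor epithelium (14.8 ± 4.11) lay wholly above healthy epithelium. The orders and overlaps of groups given here and below are those of RPKM only. Mitochondrial genes held 48.6% to 83.9% of counts in healthy and 46.3% to 60.5% in tumor epithelium. In tumor stroma they held 24.8% to 62.9%, and in blood neutrophils of healthy mice 5.34% to 14.5%. Their part in these orders was not tested. Bcl2l11 ran from 59.4 ± 18.3 RPKM in tumor neutrophils and 44.4 ± 9.38 in tumor monocytes, whose libraries overlapped, to 0.483 ± 0.294 in healthy epithelium. It was apart between neighbours at 2 of 9 steps, tumor monocytes above tumor stroma (10.5 ± 5.16) and blood neutrophils of tumor-bearing mice (2.94 ± 0.859) above healthy epithelium. For each Bcl2a1 copy 1 of 9 steps was free of overlap, tumor neutrophils above healthy blood monocytes. Bcl2a1a stood at 33.2 ± 9.04 RPKM in tumor monocytes, 25.9 ± 9.44 in tumor neutrophils, 3.92 ± 1.78 in healthy blood monocytes and 0.0256 ± 0.0273 in healthy epithelium.

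The remaining genes were lower and differed in where they were highest. Bcl2l1 was highest in tumor neutrophils (6.99 ± 2.87 RPKM), with every library above every tumor stromal one (1.78 ± 0.812), the only step of 9 without overlap. Bcl2 was highest in healthy stroma (2.20 ± 0.236 RPKM) and lowest in the neutrophils of tumor-bearing blood (0.0399 ± 0.0323). On RPKM it was apart between neighbours at 2 of 9 steps, tumor stroma above tumor epithelium and tumor epithelium above healthy epithelium. Bax was highest in healthy blood monocytes (4.02 ± 1.76 RPKM) and apart only between healthy (1.09 ± 0.474) and tumor-bearing (0.290 ± 0.195) blood neutrophils, at the bottom of its order. Bak1 led in healthy blood monocytes (12.1 ± 6.56 RPKM) and Pmaip1 in tumor neutrophils (9.75 ± 7.52 RPKM), and neither was free of overlap at any of its 9 steps.

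**Figure D1:**
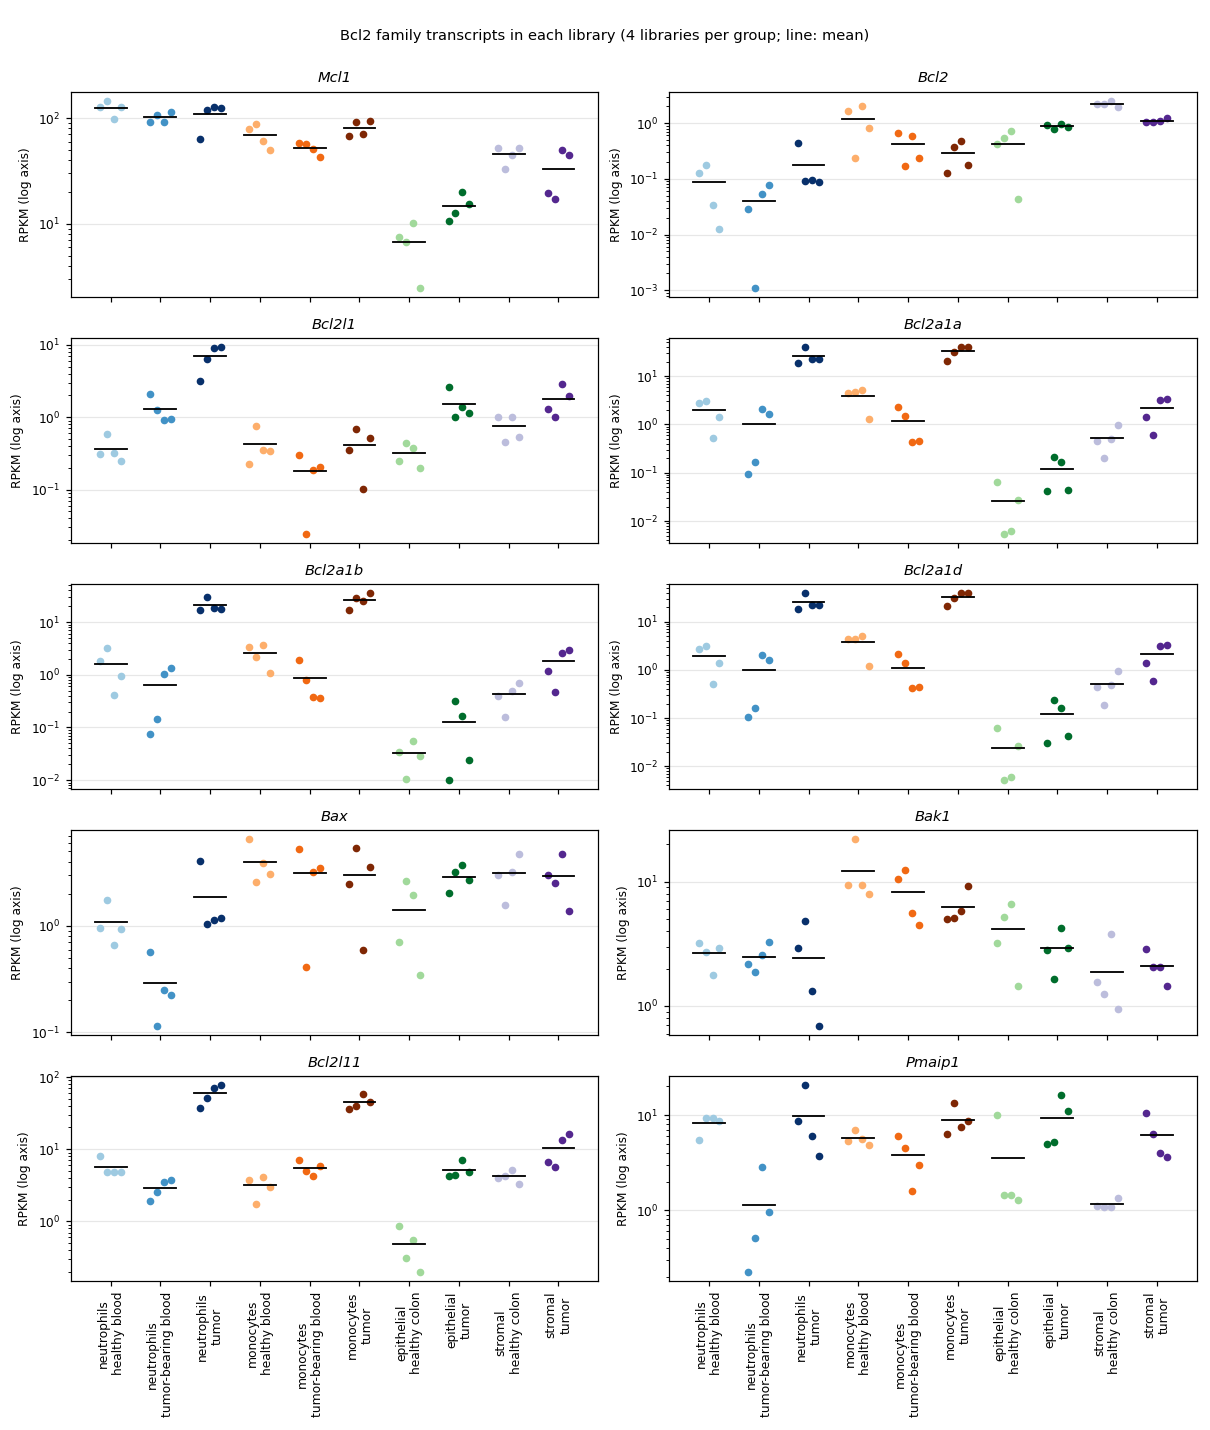
Level of each of the 10 genes in RPKM (y axis, log scale, 1 panel per gene) in the 10 groups of sorted cells (x axis). Each point is 1 library and each line the mean of 4. The Bcl2a1 copies and Bcl2l11 were highest in the tumor neutrophil and tumor monocyte libraries, Mcl1 was lowest in the epithelial ones.

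Tumor neutrophils were compared with blood neutrophils of tumor-bearing mice to ask what the cells express once in the tumor. Of the 10 genes, 7 were higher in tumor neutrophils and none lower, where 17.9% of the 13674 genes tested passed in either direction. The median log2 fold change of the 10 was 2.99, beside 0.11 over all genes, and for 8 of the 10 the lowest tumor library exceeded the highest blood library. Of the protective genes the 3 Bcl2a1 copies and Bcl2l1 rose, of the pore formers Bax, and of the BH3-only genes both Bcl2l11 and Pmaip1. The 3 copies may share reads, so they are not 3 separate results in these counts or in the median. The summed markers of immature neutrophils (Ngp, Ltf, Camp, Mpo and Elane) moved the other way. The sums were 164 to 507 RPKM in these blood libraries and 8.22 to 68.5 in the tumor libraries. Elane was not detected in any of these blood libraries, so the lower sum in tumor does not hold for each marker singly. The part of these markers in the results was not tested.

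Bcl2a1a, the first of the A1 copies, read 0.0937, 0.170, 2.13 and 1.63 RPKM in the 4 blood libraries and 18.5, 39.7, 22.8 and 22.3 in the 4 tumor libraries. All tumor values exceeded all blood values, and the blood values themselves split into a low and a high pair. The log2 fold change was 4.84 ± 1.01 (SE, adjusted p = 0.00808, 28.6-fold), with 5.15 ± 0.97 (adjusted p = 0.00512) for Bcl2a1b and 4.84 ± 0.99 (adjusted p = 0.00773) for Bcl2a1d, and the 3 copies summed gave 4.88 ± 1.00 (adjusted p = 0.00755). The size rested on single libraries: it was 4.18 for Bcl2a1a without tumor replicate 2 and 5.51 without blood replicate 3, 4.55 for Bcl2a1b without tumor replicate 2 and 5.75 without blood replicate 4, and 4.19 for Bcl2a1d without tumor replicate 2 and 5.50 without blood replicate 3. Against healthy blood neutrophils (0.535 to 3.13 RPKM of Bcl2a1a) the fold changes of the 3 copies were 4.00 to 4.02 and passed as well.

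Bcl2l11 read 1.94, 2.53, 3.48 and 3.81 RPKM in the blood libraries and 37.6, 51.4, 71.5 and 77.1 in the tumor libraries. The groups were far apart, and Bim transcripts reached a mean of 59.4 RPKM in tumor neutrophils, next to 108 RPKM of Mcl1. The log2 fold change was 4.40 ± 0.48 (adjusted p = 0.000562, 21.2-fold), and it was 3.49 (adjusted p = 0.00112) against healthy blood. Bcl2l1 read 2.06, 1.28, 0.912 and 0.934 RPKM in blood and 3.20, 6.35, 9.09 and 9.35 in tumor. Its groups did not overlap, with a log2 fold change of 2.55 ± 0.47 (adjusted p = 0.00438) and of 4.41 (adjusted p = 0.000728) against healthy blood.

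The calls for Pmaip1 and Bax were less secure. Pmaip1 read 0.224, 0.507, 2.81 and 0.954 RPKM in blood and 8.71, 20.6, 6.01 and 3.68 in tumor, which gave a log2 difference of 3.36 ± 0.93 (adjusted p = 0.0306). The Noxa transcript had lower levels in these blood libraries than in healthy blood (5.41 to 9.39 RPKM), and against healthy blood its fold change was 0.58 (adjusted p = 0.566). The Pmaip1 call was lost without blood replicate 1, 2 or 4 (adjusted p up to 0.0841), its fold change was 2.16 without tumor replicate 2 and 4.39 without blood replicate 3, and it was 1.99 (adjusted p = 0.121) without tumor replicates 1 and 2, which held the most epithelial transcripts. Bax read 0.570, 0.115, 0.251 and 0.224 RPKM in blood and 4.11, 1.04, 1.14 and 1.18 in tumor. The highest Bax value came from the tumor library with the most epithelial markers, and the part of those cells in it was not tested. The log2 fold change of Bax was 2.63 ± 0.76 (adjusted p = 0.0350), 0.76 (adjusted p = 0.410) against healthy blood and 1.94 (adjusted p = 0.0663) without tumor replicates 1 and 2, and the call was lost without any 1 of the blood libraries or without tumor replicate 1 (adjusted p up to 0.111).

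The other 3 genes did not pass. Mcl1 read 92.6, 108, 92.5 and 114 RPKM in blood and 62.8, 119, 127 and 125 in tumor, which gave a log2 difference of 0.22 ± 0.41 (adjusted p = 0.746), and its lowest value came from tumor replicate 1. Bcl2 was above blood in every tumor library (0.00111 to 0.0765 against 0.0866 to 0.441 RPKM), at a log2 difference of 2.01 ± 0.96 (adjusted p = 0.178). Bak1 ran from 0.692 to 4.78 RPKM in tumor around the 1.86 to 3.29 of blood (0.23 ± 0.68, adjusted p = 0.844). In bulk samples such as these, fewer cells of a type and less RNA per cell cannot be told apart.

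Tumor monocytes were compared in the same way with blood monocytes of tumor-bearing mice. Of the 10 genes, 6 were higher and none lower, where 17.1% of 15280 genes passed, and for all 6 the groups did not overlap. Their median log2 fold change was 1.47 over the 10, beside -0.03 over all genes. The genes that rose were Mcl1, the 3 Bcl2a1 copies, Bcl2l11 and Pmaip1, and here too the copies are not 3 separate results. The 8 epithelial markers summed to 1.60, 26.8, 10.6 and 7.73 RPKM in tumor monocyte replicates 1 to 4 and to at most 0.959 in these blood libraries. The immature-neutrophil markers summed to 26.7 to 79.4 RPKM in blood and 0.526 to 1.46 in tumor monocytes, and the part of neither in the results was tested.

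Bcl2a1a read 2.25, 1.47, 0.432 and 0.466 RPKM in blood and 21.1, 31.6, 40.2 and 39.98 in tumor monocytes. The groups did not overlap, and the log2 fold changes of the A1 copies were 5.11 ± 0.56 (Bcl2a1a, 34.6-fold), 5.20 ± 0.57 (Bcl2a1b) and 5.15 ± 0.56 (Bcl2a1d), each with an adjusted p of 0.000205 or less. Without blood replicate 1 the value for Bcl2a1b was 5.89. Bcl2l11 read 7.20, 5.001, 4.24 and 5.85 RPKM in blood and 35.97, 39.6, 57.4 and 44.8 in tumor, which gave a log2 difference of 3.27 ± 0.25 (adjusted p = 1.97e-05, 9.64-fold). Against healthy blood monocytes, Bcl2l11 gave 4.18 and the copies 3.45 to 3.70, and all 4 passed.

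Mcl1 rose less. It read 57.7, 56.4, 50.6 and 43.0 RPKM in blood and 68.1, 91.6, 70.9 and 93.0 in tumor monocytes, with no overlap and a log2 fold change of 0.89 ± 0.17 (adjusted p = 0.00518). On the log2(RPKM + 1) scale with limma the Mcl1 difference was 0.62 (adjusted p = 0.0804), and against healthy blood 0.56 (adjusted p = 0.0604). Pmaip1 read 6.02, 4.48, 1.58 and 3.01 RPKM in blood and 6.25, 13.5, 7.43 and 8.57 in tumor, which gave a log2 difference of 1.496 ± 0.38 (adjusted p = 0.0224), which was lost without tumor replicate 2 (adjusted p = 0.0659), the library with the most epithelial markers, or blood replicate 4 (adjusted p = 0.0672). Bcl2l1, the Bcl-xL gene, stayed low, at 0.0244 to 0.297 RPKM in blood and 0.101 to 0.696 in tumor (1.44 ± 0.76, adjusted p = 0.226). Bcl2 (-0.25 ± 0.57), Bax (0.17 ± 0.74) and Bak1 (-0.14 ± 0.35) had adjusted p-values of 0.814, 0.902 and 0.833 with overlapping libraries.

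The change from blood to tumor was then compared between neutrophils and monocytes with an interaction term. None of the 10 genes passed, where 3.99% of 17465 genes did. The difference was 1.00 ± 0.85 for Bcl2l1 (adjusted p = 0.543), which passed in neutrophils only, 1.02 ± 0.47 for Bcl2l11 (adjusted p = 0.229), 2.30 ± 1.06 for Bax (adjusted p = 0.224) and -0.78 ± 0.43 for Mcl1 (adjusted p = 0.323), and the other 6 ran from -0.42 (Bcl2a1d) to 2.10 (Bcl2) with adjusted p-values of 0.307 to 0.948, so a difference between the cell types was not shown for any of them. Before adjustment 2 of the 10, Bax and Bcl2l11, were under 0.05 in the edgeR fit, as were 3634 of the 17465 genes. None of the 10 passed with DESeq2, where 1419 genes were called higher and 586 lower.

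**Figure D2:**
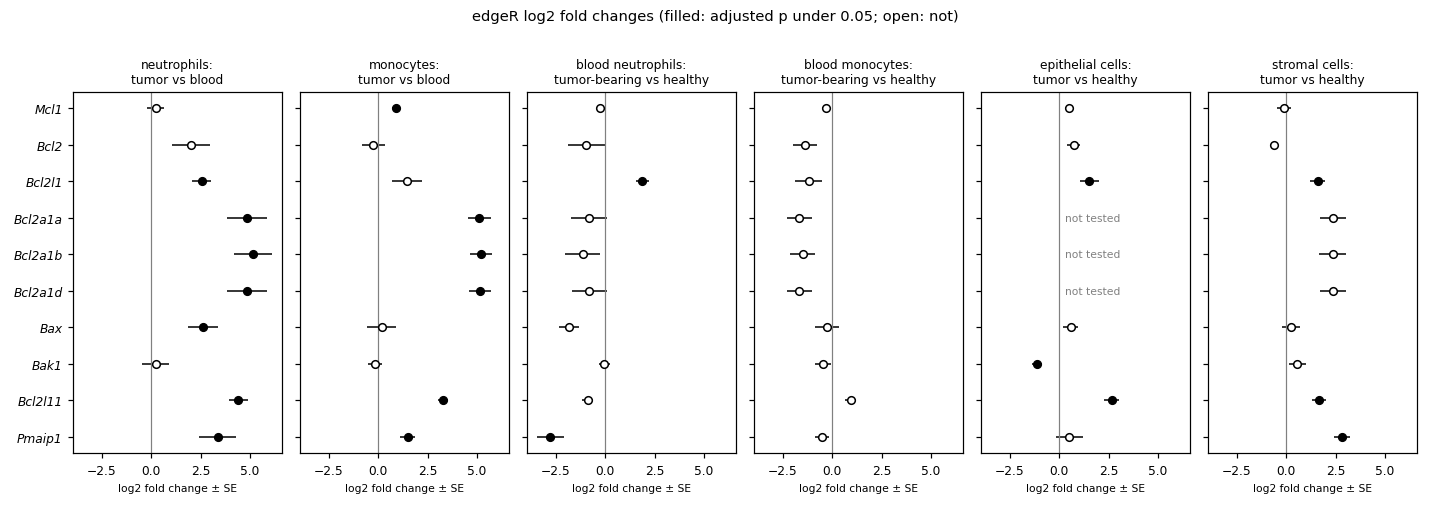
Log2 fold change with its standard error (x axis) of each of the 10 genes (rows) in 6 comparisons (panels), from edgeR on the counts with 4 libraries in each group. Filled points passed an adjusted p of 0.05 and open points did not, and the Bcl2a1 copies were not tested in epithelial cells, where counts were too low. Bcl2l11 was higher in tumor in all 4 cell types as sorted, of which the tumor stromal libraries held few fibroblast markers.

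The Bcl2a1 copies and Mcl1 made up most of the protective transcripts in tumor neutrophils and tumor monocytes. As a share of the summed RPKM of the 6 protective genes, the 3 copies took 0.286%, 0.436%, 5.30% and 3.82% in the neutrophils of tumor-bearing blood and 44.99%, 46.5%, 31.9% and 31.5% in tumor neutrophils. In monocytes they took 9.77%, 6.05%, 2.34% and 2.85% in blood and 46.1%, 49.5%, 59.5% and 55.1% in tumor. The groups were wholly apart in both cell types, with means of 2.46% and 38.7% in neutrophils and of 5.26% and 52.6% in monocytes. Mcl1 accounted for most of the rest, with means of 96.2% in blood and 57.5% in tumor neutrophils and of 93.7% and 47.0% in monocytes. Each of these 4 differences had p = 0.0286 in a 2-sided exact permutation test, the smallest that 4 libraries against 4 allow, and adjusted over the 11 comparisons of 2 groups p was 0.0629 for the copies and 0.0786 for Mcl1, so none passed. With Bcl2a1b alone standing for the copies, the shares differed by 15.2 percentage points in neutrophils and 22.7 in monocytes. With counts in place of RPKM the differences were 11.2 and 17.9, since the Bcl2a1 transcripts are short.

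In the other cell types Mcl1 held 74.4% to 92.0% of the sum in every library. Bcl2l1 reached 18.5% in tumor epithelial replicate 1, its highest share in any library, and the Bcl2a1 copies reached 16.7% in tumor stromal replicate 4. Tumor stroma (7.82% to 16.7%) lay wholly above healthy stroma (1.51% to 4.52%) for the copies (exact permutation p = 0.0286, adjusted p = 0.0629). Healthy blood monocytes (6.53% to 17.9%) lay above healthy blood neutrophils (1.48% to 6.09%) with the same values.

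**Figure D3:**
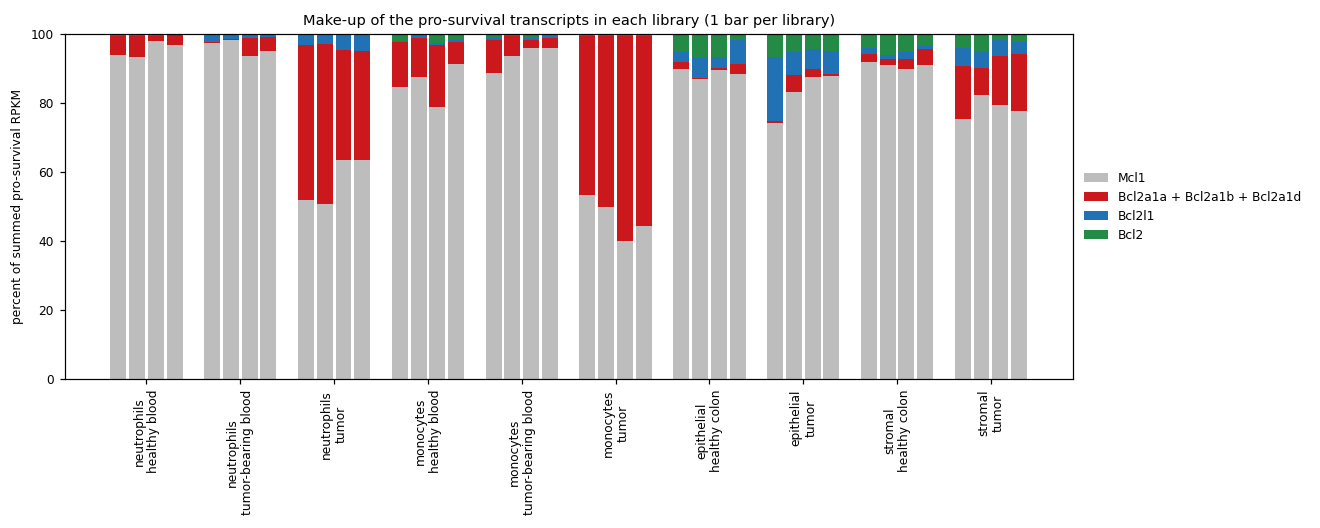
Share of each protective gene in the summed RPKM of Mcl1, the 3 Bcl2a1 copies, Bcl2l1 and Bcl2 (y axis, percent), 1 bar per library in 10 groups of 4 (x axis). Mcl1 made up 93.4% to 98.4% in every blood neutrophil library, and the Bcl2a1 copies 31.5% to 59.5% in the tumor neutrophil and tumor monocyte libraries.

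The ratio of Bim transcripts to Mcl1 transcripts, a quantity chosen after the values were seen and given without a test, separated tumor from other libraries in all 4 cell types as sorted. The tumor stromal libraries among them held few fibroblast markers and many epithelial or neutrophil ones, so they may not stand for a separate cell type. Bcl2l11 was 2.10%, 2.35%, 3.77% and 3.33% of Mcl1 per length in blood neutrophils of tumor-bearing mice and 59.9%, 43.3%, 56.5% and 61.8% in tumor neutrophils. In monocytes it was 12.5%, 8.86%, 8.39% and 13.6% in blood and 52.8%, 43.2%, 81.1% and 48.1% in tumor. Epithelial cells had 4.63% to 11.5% in healthy colon and 31.2% to 40.2% in tumor, and stromal cells 6.38% to 12.99% and 27.2% to 35.9%. Every tumor library of each type therefore exceeded every healthy or blood library of that type. Bax plus Bak1 were set against another denominator, the protective sum, which includes the Bcl2a1 copies. These pore formers stood at 1.81% to 2.93% of it in blood and 0.955% to 5.84% in tumor neutrophils, and at 16.7% to 24.2% in blood and 3.64% to 6.09% in tumor monocytes. The mean sum itself was 55.7 RPKM in blood and 174 in tumor monocytes, and neither pore former passed between them. Epithelium had 46.7% to 101% in healthy colon and 31.6% to 34.5% in tumor, and stroma 7.86% to 14.0% and 4.92% to 22.6%.

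**Figure D4:**
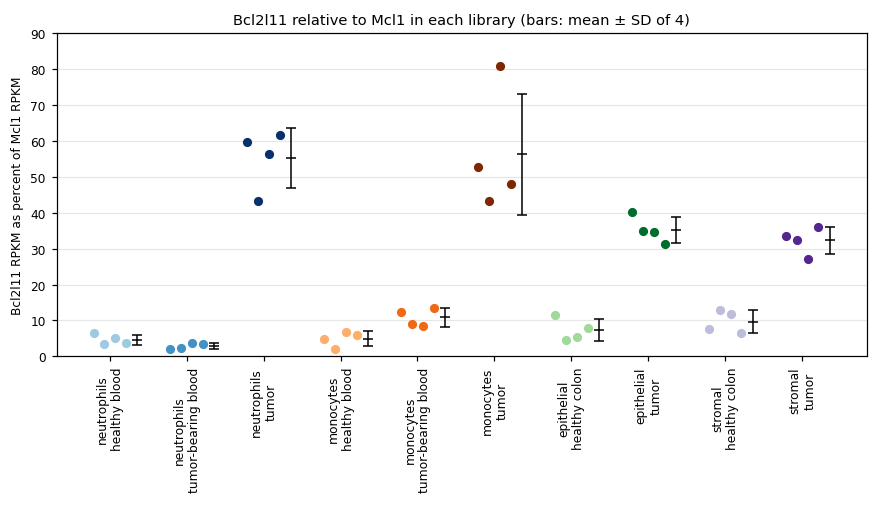
Bcl2l11 as a percent of Mcl1, both in RPKM (y axis), in each library of the 10 groups (x axis). Points are libraries and bars the mean ± SD of 4. All 16 tumor libraries lay at 27.2% or more and all 24 others at 13.6% or less.

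Blood neutrophils of tumor-bearing mice were compared with those of healthy mice to ask what a distant tumor changes in circulating cells. Of the 10 genes 1 was higher and 1 lower, where 6.52% of 13360 genes passed. Bcl2l1 rose from 0.312, 0.579, 0.325 and 0.250 RPKM in healthy to 2.06, 1.28, 0.912 and 0.934 in tumor-bearing mice, with no overlap and a log2 fold change of 1.87 ± 0.32 (adjusted p = 0.00964, 3.66-fold). In a single fit of all 40 libraries the Bcl2l1 call was lost (adjusted p = 0.0680). Pmaip1 fell from 5.41, 9.20, 9.39 and 8.68 RPKM to 0.224, 0.507, 2.81 and 0.954. All 4 tumor-bearing libraries were below all healthy ones, with a log2 fold change of -2.78 ± 0.68 (adjusted p = 0.0392). The Pmaip1 call held without tumor-bearing replicate 3, where the change was -3.85 (adjusted p = 0.00582), and was lost in each of the other 7 leave-one-out fits (adjusted p up to 0.107).

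Bcl2l11 and Bax were also lower in every tumor-bearing library without passing. Bcl2l11 read 8.10, 4.87, 4.85 and 4.77 RPKM in healthy and 1.94, 2.53, 3.48 and 3.81 in tumor-bearing blood (-0.89 ± 0.29, adjusted p = 0.0974). Bax read 0.966, 1.77, 0.665 and 0.943 RPKM against 0.570, 0.115, 0.251 and 0.224 (-1.83 ± 0.53, adjusted p = 0.0686). The other 6 genes overlapped, with log2 fold changes from -1.13 (Bcl2a1b) to -0.05 (Bak1), and Mcl1 stood at -0.24 ± 0.15 (adjusted p = 0.399). The neutrophils of the 2 kinds of blood also differed in maturity markers: the 5 genes Ngp, Ltf, Camp, Mpo and Elane, which mark immature neutrophils, summed to 3.95 to 15.2 RPKM in healthy and 164 to 507 in tumor-bearing blood, with Elane at 0 in all 4 tumor-bearing libraries, and their part in the results was not tested.

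The blood libraries also split in a way that the groups do not explain. In all 4 blood groups each of the 3 Bcl2a1 copies was higher in every library rich in erythroid and Xist transcripts than in every other library of its group. Bcl2a1a, for example, stood at 2.81 and 3.13 RPKM against 0.535 and 1.44 in healthy neutrophils, and at 1.63 and 2.13 against 0.0937 and 0.170 in tumor-bearing ones. In monocytes the values were 4.57 to 5.18 against 1.28 in healthy and 1.47 and 2.25 against 0.432 and 0.466 in tumor-bearing blood. Of 16522 genes with a mean of 0.1 RPKM or more, 1.18% were higher in this way in all 4 groups. None of the other 7 genes was. Erythroid and Xist transcripts went together in all 16 libraries and cannot be told apart, and their part in the Bcl2a1 values was not tested.

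With the 4 neutrophil libraries rich in erythroid and Xist transcripts left out, chosen after the data were seen, 5 of the 10 genes passed between tumor-bearing and healthy blood. Of all 13788 genes in that fit, 617 were called higher and 777 lower. Bcl2a1a was then -3.03 ± 0.72 (adjusted p = 0.0493), Bcl2a1d -2.95 ± 0.70 (adjusted p = 0.0472) and Bcl2l11 -1.29 ± 0.22 (adjusted p = 0.0181). Pmaip1 was -4.82 ± 0.42 (adjusted p = 0.00409) and Bcl2l1 2.35 ± 0.37 (adjusted p = 0.0147). Without those libraries, tumor neutrophils still exceeded blood neutrophils in Bcl2l11 (4.82 ± 0.82, adjusted p = 0.0326) and in the copies (7.76 to 7.80, adjusted p up to 0.0271), while Bcl2l1 was 2.17 ± 0.72 (adjusted p = 0.145), Pmaip1 5.07 ± 1.21 (adjusted p = 0.0699) and Bax 2.30 ± 1.12 (adjusted p = 0.267). Without the 2 such blood monocyte libraries of tumor-bearing mice, 6 genes passed in tumor monocytes, with fold changes of 6.38 to 6.48 for the copies. Of all 16737 genes in that fit, 1100 were called higher and 372 lower.

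Blood monocytes of tumor-bearing mice showed no call among the 10 genes by edgeR, where 0.216% of 15313 genes passed. Before adjustment, 5 of the 10 had p under 0.05, as did 1507 of the 15313 genes. DESeq2 called 1 of the 10, beside 170 genes higher and 279 lower of 15313. Bcl2l11 read 3.71, 1.73, 4.19 and 2.97 RPKM in healthy and 7.20, 5.001, 4.24 and 5.85 in tumor-bearing blood, with all tumor-bearing values above all healthy ones (0.93 ± 0.26, adjusted p = 0.225). The Bcl2a1 copies pointed down, at -1.66 ± 0.62 for Bcl2a1a, -1.498 ± 0.65 for Bcl2a1b and -1.67 ± 0.62 for Bcl2a1d, with overlapping libraries and adjusted p-values of 0.418 to 0.497. Bcl2 was at -1.39 ± 0.62 (adjusted p = 0.502). Mcl1 (-0.31), Bcl2l1 (-1.19), Bax (-0.27), Bak1 (-0.48) and Pmaip1 (-0.51) overlapped between groups. The immature-neutrophil markers summed to 26.7 to 79.4 RPKM in these tumor-bearing and 0.322 to 0.891 in healthy blood monocytes. The 8 neutrophil markers summed to 95.3 to 265 RPKM in tumor-bearing and 33.3 to 128 in healthy ones. The part of these markers in the results was not tested.

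The difference between tumor-bearing and healthy mice was not the same in blood neutrophils and blood monocytes for Bcl2l11. Its interaction term was -1.79 ± 0.41 (adjusted p = 0.0490), the neutrophil value being -0.89 and the monocyte value 0.93, and it was the only 1 of the 10 to pass, where 0.969% of 16817 genes did. The call was at the threshold and was lost in 13 of 16 leave-one-out fits (adjusted p up to 0.101). With libraries blocked by title number the term was -1.55 (adjusted p = 0.415), where 2 genes were called higher and 1 lower of 16817. Bcl2l1 gave 3.10 ± 0.77 (adjusted p = 0.0701) and Pmaip1 -2.24 ± 0.81 (adjusted p = 0.213), and the other 7 ran from -1.52 (Bax) to 0.88 (Bcl2a1a and Bcl2a1d) with adjusted p-values of 0.440 to 0.926.

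Tumor epithelial cells were compared with healthy colon epithelium, the cell type in which the Cre is driven. Apc itself stood at 5.97 to 6.51 RPKM in tumor and 0.343 to 3.34 in healthy epithelium, but a level over the whole gene does not check a deletion of part of it. Of the 7 genes tested 2 were higher and 1 lower, where 22.6% of 16085 genes passed. The Bcl2a1 copies were not tested, with at most 0.0636 RPKM in healthy epithelium for Bcl2a1a and 0.213 in tumor. Bcl2l11 read 0.865, 0.314, 0.555 and 0.200 RPKM in healthy and 4.29, 4.43, 6.99 and 4.83 in tumor epithelium. The groups were far apart, and the log2 fold change of the Bim gene was 2.66 ± 0.38 (adjusted p = 0.000666, 6.31-fold). Bcl2l1 read 0.247, 0.442, 0.378 and 0.198 RPKM in healthy and 2.66, 1.02, 1.38 and 1.14 in tumor, without overlap. Its log2 fold change of 1.53 ± 0.48 passed narrowly (adjusted p = 0.0436) and was lost in 7 of 8 leave-one-out fits (adjusted p up to 0.149), all but that without healthy replicate 4.

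Bak1 passed as lower in tumor epithelium on counts but not on RPKM. It read 3.19, 5.23, 6.61 and 1.45 RPKM in healthy and 2.84, 1.64, 4.23 and 2.94 in tumor, which overlap, and its log2 fold change was -1.12 ± 0.26 (adjusted p = 0.0102) on counts and -0.31 (adjusted p = 0.671) with limma on log2(RPKM + 1). Mcl1 (2.495 to 10.1 against 10.7 to 20.2 RPKM) and Bcl2 (0.0428 to 0.723 against 0.776 to 0.952) were higher in every tumor library, at 0.47 ± 0.20 (adjusted p = 0.128) and 0.73 ± 0.34 (adjusted p = 0.163). Bax (0.59 ± 0.38, adjusted p = 0.302) and Pmaip1 (0.52 ± 0.66, adjusted p = 0.633) overlapped, and healthy replicate 1 held 10.1 RPKM of Pmaip1 where the other 3 held 1.27 to 1.46. Xist reached 1 RPKM in 4 of 4 healthy and 1 of 4 tumor epithelial libraries. That 1 tumor library (replicate 4) lay above all healthy ones in Bcl2l11 (4.83 RPKM) and Bcl2l1 (1.14 RPKM).

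Tumor stromal cells, with the limits on their markers given above, had 3 of 10 genes higher than healthy stroma and none lower, where 9.55% of 19081 genes passed. Pmaip1 read 1.10, 1.08, 1.07 and 1.35 RPKM in healthy and 10.5, 6.38, 3.97 and 3.64 in tumor stroma. The groups did not overlap, with a log2 fold change of 2.79 ± 0.40 (adjusted p = 0.00667, 6.94-fold). Bcl2l11 read 3.97, 4.28, 5.22 and 3.32 RPKM against 6.60, 5.62, 13.6 and 16.1 (1.65 ± 0.34, adjusted p = 0.0207), a call lost without healthy replicate 1 (adjusted p = 0.0747) or 2 (adjusted p = 0.0618). Bcl2l1 read 1.00, 0.456, 1.01 and 0.536 RPKM against 1.30, 1.02, 2.84 and 1.96 (1.59 ± 0.37, adjusted p = 0.0308), a call lost in 6 of 8 leave-one-out fits (adjusted p up to 0.0947), all but those without tumor replicate 1 or 2. On log2(RPKM + 1) with limma, Bcl2l11 was at 1.04 (adjusted p = 0.0761) and Bcl2l1 at 0.64 (adjusted p = 0.104). The 3 Bcl2a1 copies were at 2.35 to 2.36, just short of passing (adjusted p = 0.0555 to 0.0601), and their sum passed at 2.36 ± 0.62 (adjusted p = 0.0467).

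The 4 tumor stromal libraries were not alike. Replicates 3 and 4 had the higher Bcl2a1a (3.26 and 3.33 RPKM, against 1.46 and 0.597 in replicates 1 and 2), Mcl1 (50.1 and 44.8 against 19.6 and 17.3) and Bcl2l11. The same libraries had the most neutrophil markers, 1570 and 532 RPKM summed over 8 genes, against 42.0 and 8.68 in replicates 1 and 2 and 6.32 to 45.5 in healthy stroma, and replicates 1 and 2 had the most epithelial markers and the most Pmaip1. The part of these other cells in the stromal results was not tested. Without replicates 1 and 2, a choice made after the data were seen, 6 genes passed, the copies at 2.94 to 2.96, Bcl2l11 at 2.11, Bcl2l1 at 1.97 and Pmaip1 at 2.01. Of all 20786 genes in that fit, 614 were called higher and 662 lower. Bcl2 was lower in every tumor library (1.04 to 1.23 against 1.92 to 2.495 RPKM) at -0.62 ± 0.20 (adjusted p = 0.0868), and Mcl1 (-0.14), Bax (0.25) and Bak1 (0.57) overlapped.

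The change in tumor differed between epithelium and stroma for 2 of the 10 genes, where 15.1% of 20901 genes passed the interaction test. Bcl2 gave 1.35 ± 0.41 (adjusted p = 0.0359), with 0.73 in epithelium and -0.62 in stroma. Bak1 gave -1.68 ± 0.51 (adjusted p = 0.0358), with -1.12 and 0.57. Leaving out 1 library ended the Bcl2 call in 10 of 16 fits (adjusted p up to 0.0809) and the Bak1 call in 9 of 16 (adjusted p up to 0.0732), and without tumor stromal replicates 1 and 2 neither passed (adjusted p = 0.0855 and 0.145). With limma on log2(RPKM + 1) the Bak1 difference was -0.49 (adjusted p = 0.522). Pmaip1, at -2.27 ± 0.86, had an adjusted p of 0.0895, and the other 7 ran from -1.04 (Bcl2a1b) to 1.00 (Bcl2l11) with adjusted p-values of 0.218 to 0.975.

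Neutrophils and monocytes of the same source were compared next. In healthy blood 3 of the 10 genes were higher in neutrophils and 3 lower, where 50.8% of 15033 genes passed. In the blood of tumor-bearing mice 2 were higher and 3 lower, where 51.2% of 14462 passed, and in tumors 1 was higher and none lower, where 7.71% of 15003 passed. The first pair of shares is near the background. Mcl1 was higher in neutrophils of healthy blood (97.0 to 145 against 50.2 to 86.9 RPKM, 1.62 ± 0.18, adjusted p = 8.68e-05) and of tumor-bearing blood (92.5 to 114 against 43.0 to 57.7 RPKM, 1.70 ± 0.17, adjusted p = 2.44e-05), and overlapped in tumors (1.04 ± 0.42, adjusted p = 0.158), where it passed with libraries blocked by title number (1.24, adjusted p = 0.0470). Bcl2 was lower in neutrophils of both kinds of blood, at -3.03 ± 0.80 (adjusted p = 0.0106) and -2.59 ± 0.82 (adjusted p = 0.0224), the second call being lost without neutrophil replicate 1 or monocyte replicate 1 or 3.

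The Bcl-xL gene passed between the cell types in both settings with a tumor. Bcl2l1 was at 3.58 ± 0.62 (adjusted p = 0.000792, 11.99-fold) between neutrophils and monocytes of tumor-bearing blood and at 4.72 ± 0.66 (adjusted p = 0.00264, 26.3-fold) between those of tumors, with no overlap in either, while in healthy blood it was at 0.52 ± 0.45 (adjusted p = 0.359). The difference between the blood settings is the interaction given above, which did not pass for this gene. The pore formers were higher in monocytes. Bak1 was at -1.43 ± 0.36 in healthy (adjusted p = 0.00785) and -0.98 ± 0.36 in tumor-bearing blood (adjusted p = 0.0426), and Bax at -1.12 ± 0.39 (adjusted p = 0.0356) and -2.67 ± 0.75 (adjusted p = 0.0123), although Bax of tumor-bearing monocyte replicate 2 (0.410 RPKM) lay within the neutrophil range. The healthy Bax call was lost in 6 of 8 leave-one-out fits and the tumor-bearing Bak1 call in 5 of 8 (adjusted p up to 0.123 and 0.121), and with libraries blocked by title number both were lost, at -0.999 (adjusted p = 0.0642) and -0.51 (adjusted p = 0.382).

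Bcl2l11 was higher in healthy blood neutrophils than in monocytes (1.63 ± 0.29, adjusted p = 0.00125) and Pmaip1 as well (1.32 ± 0.25, adjusted p = 0.00175), the latter with overlapping RPKM and a difference of 0.44 (adjusted p = 0.0843) on log2(RPKM + 1). In tumor-bearing blood Bcl2l11 was at -0.17 ± 0.27 (adjusted p = 0.624), although all its RPKM values were lower in neutrophils. The count and RPKM scales differ here: limma on log2(RPKM + 1) gave -0.75 for the same gene (adjusted p = 0.0134), and -1.21 for Pmaip1 (adjusted p = 0.0245), which was at -0.95 ± 0.70 on counts (adjusted p = 0.276). The 3 Bcl2a1 copies did not pass between neutrophils and monocytes in any source (adjusted p of 0.594 or more), and their sign in tumor-bearing blood and in tumors was positive on counts and negative on log2(RPKM + 1). In tumors Bak1 was lower in every neutrophil library (0.692 to 4.78 against 5.03 to 9.16 RPKM) at -0.67 ± 0.66 (adjusted p = 0.575). Bcl2 (-0.39), Bax (-0.27), Bcl2l11 (0.98) and Pmaip1 (0.89) overlapped there, with adjusted p-values of 0.180 to 0.857. Without tumor neutrophil replicates 1 and 2, the 4 genes that passed in tumors were Bcl2l1 at 4.88, Bak1 at -2.27, Bcl2l11 at 1.09 and Mcl1 at 1.01. In that fit 1422 genes were called higher and 1291 lower of 16708.

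Healthy epithelium was compared with healthy stroma, where 7 of the 9 genes tested passed, 2 higher and 5 lower in epithelium, and 38.1% of 18468 genes passed. Mcl1 (2.495 to 10.1 against 32.9 to 52.1 RPKM, -1.80 ± 0.25, adjusted p = 0.000568), Bcl2 (0.0428 to 0.723 against 1.92 to 2.495 RPKM, -1.72 ± 0.35, adjusted p = 0.00388) and Bcl2l11 (0.200 to 0.865 against 3.32 to 5.22 RPKM, -2.07 ± 0.42, adjusted p = 0.00375) were lower in every epithelial library. Bcl2a1a and Bcl2a1d also passed (adjusted p = 0.0453 and 0.0436), at 0.00544 to 0.0636 against 0.198 to 0.955 RPKM for Bcl2a1a, but epithelial libraries held at most 3 counts each, so no fold is given, and both calls were lost in 7 of 8 leave-one-out fits. Bak1 (2.04 ± 0.43, adjusted p = 0.00473) and Pmaip1 (2.74 ± 0.72, adjusted p = 0.0141) were higher on counts with overlapping RPKM, and on log2(RPKM + 1) gave 0.80 (adjusted p = 0.134) and 0.71 (adjusted p = 0.188). Bak1 was 2.64 without stromal replicate 3, and Pmaip1 was 1.81 without epithelial replicate 1. Bcl2l1 was lower in every epithelial library on RPKM but stood at -0.09 ± 0.45 on counts (adjusted p = 0.893), Bax overlapped (-0.38 ± 0.42, adjusted p = 0.530), and Bcl2a1b was not tested.

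Between tumor epithelium and tumor stroma no gene of the 10 passed by edgeR, where 0.0294% of 16985 genes did. Before adjustment 5 of the 10 had p under 0.05, as did 2507 of the 16985 genes. DESeq2 called 4 of the 10, beside 97 genes higher and 1262 lower of 16985. Without tumor stromal replicates 1 and 2, 6 passed, beside 2160 genes higher and 3695 lower of 19784. The Bcl2a1 copies were lower in every epithelial library (0.0422 to 0.213 against 0.597 to 3.33 RPKM of Bcl2a1a), at -4.15 ± 0.77 for Bcl2a1a (adjusted p = 0.0616). Bcl2 was also lower in every epithelial library on RPKM (-0.32 ± 0.21 on counts, adjusted p = 0.524). The other 6 genes overlapped, from -1.18 (Mcl1) to 0.52 (Pmaip1), with adjusted p-values of 0.146 to 0.995. With libraries blocked by title number, which 2 pairs share and which leaves 1 residual degree of freedom, 4 genes passed, Mcl1 at -1.77, Bcl2a1a at -4.59, Bcl2a1d at -4.48 and Bcl2l11 at -1.51. In that fit 909 genes were called higher and 1765 lower of 16985.

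The genes whose levels followed each of the 10 most closely over all 40 libraries were taken by Pearson's r of log2(RPKM + 1), among 4891 genes with a group mean of at least 5 RPKM, as a description in which libraries of 1 group share their cell type. For the Bcl2a1 copies it was their near-copy Bcl2a1c (r = 0.99 to 1.00), then Irak2 (0.93 to 0.94), a kinase of Toll-like receptor signalling, and Gpr84 (0.92) or Cyth1 (0.92). For Bcl2l11 it was Tnip1 (0.94) and Nfkbie (0.91), both inhibitors in the NF-kappaB pathway, and Ccrl2 (0.91). For Mcl1 it was the pseudogene Gm20432 (0.97), Dennd5a (0.95) and the TNF receptor gene Tnfrsf1a (0.95). For Bcl2l1 it was Optn, Lamb3 and Cldn1 (0.86 each), for Bak1 Syngr2 (0.88), Naip5 (0.84) and Scamp2 (0.83), for Bcl2 Gm20721, Sptbn1 (0.88 each) and Naa38 (0.86), and for Bax Gm5263 (0.85), Utp3 (0.83) and Dek (0.82). Pmaip1 had no close companion, the nearest being Tnf (0.69), Tgif1 (0.62) and H3f3b (0.59).

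Of 40 other genes of the apoptosis pathway (other relatives of Bcl2, other BH3-only genes, caspases and the apoptosome, inhibitors of apoptosis, the death receptor arm and regulators of Mcl1 protein turnover), counts are given for the same comparisons. In tumor against blood neutrophils 7 of 33 tested were higher and 1 lower, beside 17.9% of all genes, with a median log2 fold change of 0.22, led by Bcl2a1c (4.59 ± 1.07), Fbxo4 (3.58 ± 0.89), a ubiquitin ligase subunit, Birc3 (2.14 ± 0.41), an inhibitor of apoptosis that NF-kappaB induces, and Bnip3 (1.68 ± 0.48), a hypoxia-induced BH3-like gene. In monocytes 6 of 35 were higher and 1 lower, beside 17.1% of all genes, with a median of 0.07, led by Bcl2a1c (5.003 ± 0.60), Bmf (-3.68 ± 0.51), another BH3-only gene, Bnip3 (3.21 ± 0.57) and Cflar (2.34 ± 0.25), which encodes the caspase-8 inhibitor FLIP. The change of Cflar differed between the cell types (-1.57 ± 0.39, adjusted p = 0.0299), the only 1 of 36 tested to do so, beside 3.99% of all genes.

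In blood, Htra2 (-1.67 ± 0.41, adjusted p = 0.0392) was the only 1 of 33 to pass between neutrophils of tumor-bearing and healthy mice, beside 6.52% of all genes. In blood monocytes none of 33 passed by edgeR (0.216% of all genes did). Before adjustment 6 of them were under 0.05, as were 1507 of 15313 genes. DESeq2 called 1, beside 170 genes higher and 279 lower of 15313. In epithelium 2 of 36 were higher in tumor and 3 lower, beside 22.6% of all genes, among them Bnip3 (3.07 ± 0.56), the caspase gene Casp6 (1.71 ± 0.29) and Bcl2l14 (-1.70 ± 0.29). In stroma 3 of 38 were higher, beside 9.55% of all genes, Bcl2l14 (2.49 ± 0.65), Casp6 (2.38 ± 0.45) and Bid (1.70 ± 0.43). The change in tumor differed between epithelium and stroma for 5 of 38, beside 15.1% of all genes, most for Bcl2l14 (-4.17 ± 0.67). Neutrophils and monocytes differed in 17 of 33 of these genes in healthy blood and in 19 of 34 in tumor-bearing blood, near the 50.8% and 51.2% of all genes. Bcl2l2, the gene of the protective protein Bcl-w, was lower in neutrophils of both (-5.83 ± 0.83 and -4.58 ± 0.85), and Fas, the death receptor, was higher in neutrophils of tumor-bearing blood (2.65 ± 0.25), of tumors (3.09 ± 0.54) and, named after its value was seen, of healthy blood (2.69 ± 0.28). In tumors it and Birc3 (1.59 ± 0.41) were the 2 of 36 that passed, beside 7.71% of all genes. Healthy epithelium and stroma differed in 16 of 37, near the 38.1% of all genes, led by Bcl2l14 (4.82 ± 0.40). Tumor epithelium and stroma differed in none of 38 by edgeR. Before adjustment 5 of these were under 0.05, as were 2507 of 16985 genes, and DESeq2 called 2, beside 97 genes higher and 1262 lower.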

How the data were processed

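RNA of sorted neutrophils, monocytes, epithelial and stromal cells was amplified and sequenced by the authors, aligned to mm10 with Bowtie2 per the labels, and quantified per gene. The tool versions, annotation release, treatment of reads with several positions and use of strand are not given in the sources used here. The deposited tables hold expected counts (99.6% of nonzero values were not whole) and RPKM, which the authors scaled for gene length and library size. All 40 libraries were assigned from the labels and 0 columns were left unused. Counts were rounded to whole numbers, filtered with filterByExpr, scaled by TMM and tested with edgeR 4.0.16 (robust quasi-likelihood, R 4.3.3), 8 libraries in a fit and 16 in an interaction fit, with Benjamini-Hochberg adjustment over all genes tested. The fits were tested on simulated counts. Shares of RPKM were compared by exact permutation over the 70 arrangements of 4 against 4 libraries. Alternatives used limma 3.58.1, DESeq2 1.42.0, other filters and scalings, and fits without single libraries or pairs of libraries. Positions are from GENCODE M21 and promoters from RefSeq. The intervals and errors cover spread between libraries only.

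The 10 genes, the gene lists and the markers were chosen with earlier results of these data known. All 10 genes are given in every comparison, by their range where groups of them did not pass. Of 40 other pathway genes, counts are given, and the passing ones with the largest absolute log2 fold change are named, at most 4 per comparison. Some values of these pathway genes are not reported here. For likeness, the 3 genes with the highest Pearson r of log2(RPKM + 1) are named.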

Additional observations from a re-analysis of the deposited data

Results flagged for a closer look

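In 10 of 100 groups of 4 values, 1 library lay far from the other 3 by Dixon's test, where chance gives about 1 in 20. Tumor neutrophil replicate 1 was the lowest of its group in Mcl1 (62.8 RPKM) and the highest in Bcl2 (0.441 RPKM) and Bax (4.11 RPKM). Tumor neutrophil replicate 2 was the highest of its group in Bcl2a1b (30.2 RPKM). Healthy blood monocyte replicate 4 was the lowest in Bcl2a1a (1.28 RPKM) and Bcl2a1d (1.23 RPKM), and replicate 2 of that group the highest in Bak1 (21.9 RPKM). Healthy blood neutrophil replicate 1 was the highest of its group in Bcl2l11 (8.10 RPKM). Pmaip1 stood out in healthy epithelial replicate 1 (10.1 RPKM) and in healthy stromal replicate 4 (1.35 RPKM).

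The interaction term passed for 3 genes over the 3 interactions: 1 of 10 in blood, beside 0.969% of all genes, 2 of 10 in epithelium against stroma, beside 15.1%. From blood to tumor it passed for 0 of 10, beside 3.99%. Each of these calls was lost in most of the fits that left out 1 library. The change in blood with a tumor differed between neutrophils and monocytes by -1.79 for Bcl2l11. The change in tumor differed between epithelium and stroma by 1.35 for Bcl2 and by -1.68 for Bak1.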

How the results depend on the processing

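Of 3086 values of single genes under the alternatives, 2703 kept their direction and side of the threshold, 140 changed sign with neither value passing, 164 lost and 79 gained a call, and none that passed reversed. The calls over all genes moved between settings too. Between tumor epithelium and stroma, for example, edgeR called 0 genes higher and 5 lower, and DESeq2 97 and 1262. In brackets below are the genes called higher and lower of all genes tested in that fit. The number of the 10 genes that passed moved by more than 1.5 times in the cases that follow, and the cause was not tested. In tumor against blood neutrophils it was 3 with at least 10 counts in every library (fewer genes tested, 1064 and 638 of 7194). It was 4 without the erythroid-rich libraries (240 and 29 of 16607). In blood neutrophils of tumor-bearing against healthy mice it was 1 in the fit of all 40 libraries (205 and 233 of 22122). Without the erythroid-rich libraries it was 5 (617 and 777 of 13788), and in blood monocytes 1 with DESeq2 (170 and 279 of 15313). In epithelium it was 1 in the fit of all 40 (1490 and 1446 of 22122). In stroma it was 7 with DESeq2 (1747 and 1877 of 19081) and 5 with at least 10 counts (497 and 712 of 13248). Without tumor replicates 1 and 2 it was 6 (614 and 662 of 20786). Between neutrophils and monocytes it was 3 in healthy blood with a log2 fold change above 1.5 required (2510 and 3066 of 15033). Between those of tumor-bearing blood it was 3 with limma-voom (3596 and 4168 of 14462) and 2 with at least 10 counts (2195 and 2428 of 9104). Between those of tumors it was 4 without neutrophil replicates 1 and 2 (1422 and 1291 of 16708). In the fit of all 40 it was 2 there (2872 and 2421 of 22122). Between tumor epithelium and stroma it was 4 with DESeq2 (97 and 1262 of 16985) and 2 on log2(RPKM + 0.1) (1 and 105 of 16985). It was 6 without stromal replicates 1 and 2 (2160 and 3695 of 19784) and 4 in the fit of all 40 (22 and 1782 of 22122). For the interaction from blood to tumor it was 1 on log2(RPKM + 1) (504 and 358 of 17465). For that in blood it was 2 with DESeq2 (332 and 325 of 16817) and on log2(RPKM + 1) (148 and 84 of 16817). It was 0 with no filter (54 and 29 of 33409), with the replicate block (49 and 26 of 16817) and in the fit of all 40 (12 and 16 of 22122). For that in epithelium and stroma it was 1 with no filter (1430 and 1356 of 35634), with at least 10 counts (609 and 919 of 10039) and with the replicate block (1295 and 1337 of 20901). It was also 1 on log2(RPKM + 1) (2902 and 405 of 20901) and with a log2 fold change above 1.5 (1423 and 1515 of 20901). It was 0 without stromal replicates 1 and 2 (1304 and 1407 of 23068) and in the fit of all 40 (1347 and 1331 of 22122).

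Leaving out 1 library gave 5 to 7 genes in tumor against blood neutrophils, 5 to 6 for monocytes likewise, 1 to 2 in blood neutrophils, 0 in blood monocytes, 2 to 4 in epithelium and 1 to 5 in stroma. Neutrophils against monocytes gave 5 to 7, 3 to 5 and 1 to 3 in healthy blood, tumor-bearing blood and tumors, and epithelium against stroma 5 to 8 and 0 to 3 in health and tumor. The interactions gave 0 from blood to tumor, 0 to 2 in blood and 0 to 2 in tumor. Same-numbered libraries gave correlations of -0.13 to 0.211, over 0.1 for all pairs of no comparison, and by that rule the numbers were not taken as pairs. Between blood monocytes of tumor-bearing and healthy mice the 4 pairs ran from 0.0649 to 0.211. Their mean was 0.120, beside -0.0356 for the other pairs, so some joint deviation is not excluded there. The numbers in the titles, checked after the data were seen, gave correlations of -0.126 to 0.261 and no comparison with all of 3 or more pairs over 0.1. Between healthy blood neutrophils and monocytes 3 of 4 such pairs were over 0.1, beside a mean of -0.0442 for the other pairs. A replicate block by title number was run where at least 2 numbers are shared, but not for the interaction of epithelium and stroma. With it 2 genes passed between neutrophils and monocytes of tumors, 4 between tumor epithelium and stroma, and 0 for the interaction in blood. Of all genes, 562 were called higher and 248 lower of 15003, 909 and 1765 of 16985, and 2 and 1 of 16817. With so few calls in the last fit, its 0 says little about these genes. Healthy blood neutrophils and monocytes were also fitted with this block (3599 higher and 3764 lower of 15033). So were those of tumor-bearing blood (2503 and 2935 of 14462) and the interaction from blood to tumor (51 and 64 of 17465). Their counts of family genes are not given here. With the replicate block, 5, 6, 2 and 0 genes passed in tumor neutrophils, tumor monocytes, blood neutrophils and blood monocytes. Over all genes those fits called 1042 higher and 382 lower of 13674, and 1164 and 537 of 15280. In the blood fits the calls were 263 and 219 of 13360 for neutrophils, and 5 and 9 of 15313 for monocytes.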
